A study of Homo sapiens with 8 samples.

Results

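Peaks of p53 chromatin immunoprecipitation with sequencing (ChIP-seq) were examined at 8 genes for small structural noncoding RNAs in 293T cells: RNU4-1, RNU4-2, SNORD118, SNORD3A, RMRP, RPPH1, RN7SL1 and RN7SL2. The genes were selected on peaks already seen in these lists, so the presence and strength of their peaks are descriptions without a test. Every deposited peak that shared at least 1 bp with one of 7 windows of 6 to 8 kb on hg19 was taken, with RNU4-1 and RNU4-2 in 1 window. The windows held 34 of 97582 deposited peaks. There were 12 of 46658 in Dox replicate 1 and 7 of 16642 in Dox replicate 2, and 7 of 11304 in PBS replicate 1 and 8 of 22978 in PBS replicate 2.

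The 293T line derives from human embryonic kidney and carries the simian virus large T antigen, which binds p53. Dox cells received doxorubicin, a topoisomerase poison that breaks DNA, at 0.5 µg/ml for 24 h, and PBS cells received 20 µl of phosphate-buffered saline for 24 h. Each condition had 2 p53 ChIP libraries, replicate 1 from passage 3 and replicate 2 from passage 5, so replicate number and passage cannot be told apart, and no label says that the libraries came from independent experiments. The 4 input samples were not analysed here.

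Cells make these RNAs in large amounts and use them in RNA-protein machines. RNU4-1 and RNU4-2 encode U4, a small nuclear RNA of the spliceosome, while SNORD3A encodes the U3 and SNORD118 the U8 small nucleolar RNA, which guide the processing of ribosomal RNA. These 4 genes have their own promoters and are transcribed by RNA polymerase II. RMRP and RPPH1 encode the RNA parts of the endonucleases RNase MRP and RNase P, and RN7SL1 and RN7SL2 encode the 7SL RNA of the signal recognition particle. These 4 genes are transcribed by RNA polymerase III, which p53 is known to repress through the initiation factor TFIIIB.

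The strongest peaks lay in the 3 windows of polymerase II genes, in every library. Strength is given as the authors' fold enrichment, the signal at a peak's summit over a background that the peak caller estimates nearby. Each list has its own scale, so folds of different lists were not compared. Over the 4 libraries, the strongest peak of a polymerase II window reached 6.93-fold to 22.5-fold. That of a polymerase III window, where there was one, reached 1.86-fold to 5.43-fold. In each of the 4 libraries the weakest of the 3 polymerase II windows exceeded the strongest polymerase III window. The medians of the whole lists lay between 2.47-fold and 2.85-fold.

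**Figure D1:**
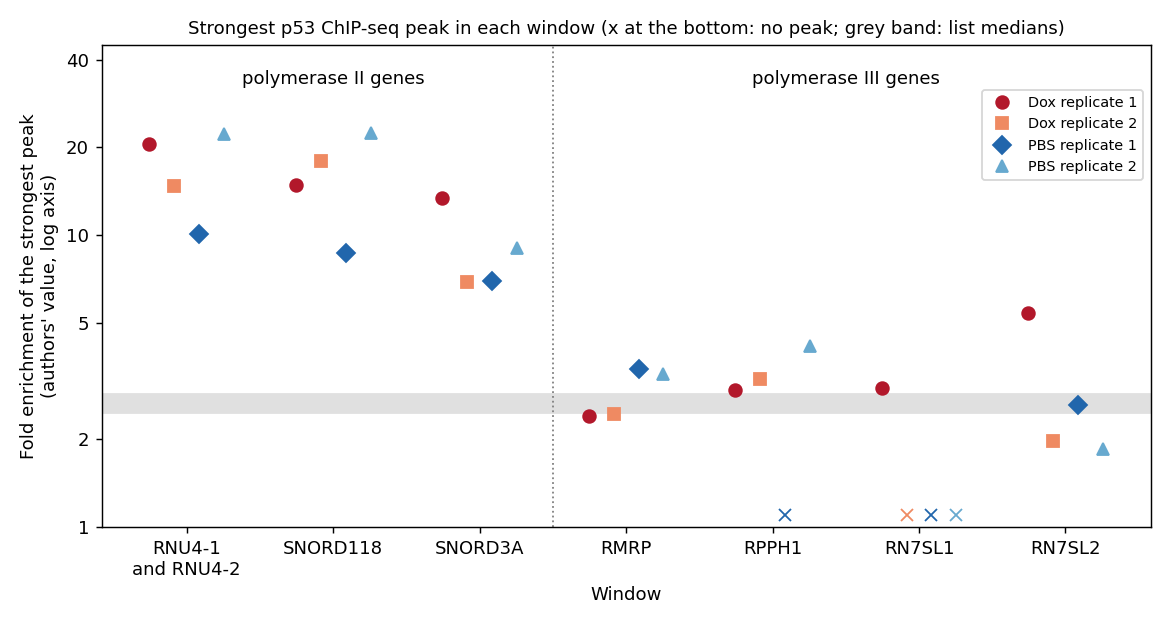
Fold enrichment (log axis, the authors' value) of the strongest p53 ChIP-seq peak in each of the 7 windows, with 1 point per library, Dox left of PBS. The polymerase II windows lie between 6.93 and 22.5 and the polymerase III windows between 1.86 and 5.43; crosses at the bottom mark libraries with no peak in the window, and the grey band spans the median folds of the 4 lists.

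The window of the U4 genes held 1 long peak in each library. Its fold was 20.5 in Dox replicate 1 and 14.8 in Dox replicate 2, and 10.1 in PBS replicate 1 and 22.3 in PBS replicate 2. Ranked by fold within its own list, this peak came 4th and 11th in the Dox libraries and 24th and 5th in the PBS libraries. The 4 peaks merged into 1 site on chromosome 12 from 120728497 to 120731197. The lists give 1 summit per peak and 2 gene copies share the window, so signal at RNU4-1 and RNU4-2 could not be assigned separately. The −log10 p of these peaks was 49.95 and 37.3 in Dox replicates 1 and 2, and 24.2 and 59.4 in PBS replicates 1 and 2.

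The U8 gene, SNORD118, had a peak of similar strength. Its fold was 14.9 in Dox replicate 1 and 18.0 in Dox replicate 2, and 8.72 in PBS replicate 1 and 22.5 in PBS replicate 2. It ranked 16th and 9th in the Dox lists and 34th and 3rd in the PBS lists. This site, on chromosome 17 from 8075582 to 8077153, was the only one in the SNORD118 window with a peak in all 4 libraries. The other 6 peaks of that window were short and weak. One, of 203 bases in Dox replicate 2, lay just below the main site, and the other 5 lay above it, between positions 8078867 and 8080380, with folds between 2.37 and 3.75.

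SNORD3A, which encodes U3, was the weakest of the polymerase II windows. The fold of its strongest peak was 13.45 in Dox replicate 1 and 6.93 in Dox replicate 2, and 7.0 in PBS replicate 1 and 9.02 in PBS replicate 2. It ranked 20th and 118th in the Dox lists and 64th and 75th in the PBS lists. In PBS replicate 1 the region was split into 2 adjacent peaks, of 6.59-fold over 1583 bases and of 7.0-fold over 793 bases, where each other library had a single peak of 2230 to 2576 bases. All merged into 1 site on chromosome 17 from 19091169 to 19093779.

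The order of the 3 strong windows was not the same in each list. The U4 window led in Dox replicate 1 and in PBS replicate 1, both from passage 3. SNORD118 led in Dox replicate 2 and in PBS replicate 2, both from passage 5, although in PBS replicate 2 the 2 leading folds, 22.5 and 22.3, were close. SNORD3A came after both in all 4 libraries.

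The polymerase III windows lay further down the lists, at ranks of 1.27% to 99.1% of the list length. RN7SL2, a 7SL gene, had a peak of 5.43-fold in Dox replicate 1, which ranked 592nd. Its strongest peak in Dox replicate 2 was 1.97-fold, and those in PBS replicates 1 and 2 were 2.63-fold and 1.86-fold. The share of peaks in the list with a fold at or below that of the RN7SL2 peak was 98.7% in Dox replicate 1 and 1.56% in Dox replicate 2, and 45.4% in PBS replicate 1 and 0.866% in PBS replicate 2. Thus RN7SL2 was near the top of 1 list, in the middle of another and at the bottom of both replicate 2 lists.

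RN7SL1, the other 7SL gene examined, had a peak in Dox replicate 1 alone, of 3.0-fold on chromosome 14 from 50053060 to 50053438. No peak was listed in its window in Dox replicate 2 or in either PBS library. Among all 63890 merged sites, 48.5% were found in Dox replicate 1 alone, the longest list, so this pattern was the most frequent one. Just outside the lower edge of the RN7SL1 window, PBS replicate 1 had a peak of 2.97-fold at 299 bases and PBS replicate 2 one of 2.02-fold at 292 bases from the edge.

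RPPH1, the RNase P RNA gene, had peaks in 3 libraries. Its strongest peak was 2.94-fold in Dox replicate 1, 3.22-fold in Dox replicate 2 and 4.19-fold in PBS replicate 2, and PBS replicate 1 had none. These 3 peaks overlapped at a site on chromosome 14 from 20811261 to 20811874. RMRP, the RNase MRP RNA gene, had a peak in every library, with folds of 2.4 in Dox replicate 1 and 2.44 in Dox replicate 2, and of 3.49 in PBS replicate 1 and 3.34 in PBS replicate 2. Both RMRP peaks of Dox replicate 1 lay on either side of the site formed by the other 3 libraries (chromosome 9, 35657465 to 35658198) and did not overlap it.

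Counted by window, 5 of 7 had a peak in all 4 libraries: the 3 polymerase II windows, RMRP and RN7SL2. For scale, 0.967% of 466857 adjoining tiles of 6.5 kb, the median window length, held a peak in all 4 libraries. Counted by merged site, the windows held 15 sites, of which 4 had a peak in all 4 libraries, 2 in 3 libraries, 2 in 2 libraries and 7 in 1 library. Over the genome 6.01% of merged sites had a peak in all 4. The 4 sites were those of the U4 genes, SNORD118, SNORD3A and RN7SL2. The windows were chosen in view of peaks in these lists, so nothing was read from the difference.

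A stricter threshold left the polymerase II windows in place. With q, the caller's p-value adjusted over the genome, of at most 0.05, all 3 kept a peak in all 4 libraries. Of the polymerase III windows, RN7SL2 passed in Dox replicate 1, with a −log10 q of 2.45, and RPPH1 in PBS replicate 2, with 1.51. RMRP and RN7SL1 passed in none. In all, 4 of 12 peaks in Dox replicate 1 and 3 of 7 in Dox replicate 2 passed, and 4 of 7 in PBS replicate 1 and 4 of 8 in PBS replicate 2. In the whole lists the shares that passed were 3.65% and 4.84% for Dox replicates 1 and 2 and 2.56% and 5.84% for PBS replicates 1 and 2. As the members were selected on peaks already seen in these lists, these counts carry no test either.

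The authors' tables of peak pairs matched between replicates placed the U4 genes, SNORD118 and SNORD3A first among the windows. They give every pair an irreproducible discovery rate (IDR), which is small where both of its peaks rank high and their ranks agree between replicates. The IDR thus also reflects the strength of the peaks. The Dox pair had an IDR of 8.05e-07 at the U4 genes, 6.65e-07 at SNORD118 and 1.08e-06 at SNORD3A. In PBS the IDR was 7.33e-06 at the U4 genes, 7.72e-06 at SNORD118 and 1.31e-05 at SNORD3A. An IDR of at most 0.05 was reached in both conditions in these 3 windows and in none of the other 4. The compared loci CDKN1A, MDM2 and NEAT1 also reached it in both conditions, as did RN7SK, which is transcribed by polymerase III. The smallest IDR was 1.03e-06 in Dox and 1.25e-05 in PBS at CDKN1A, and 7.72e-07 and 6.94e-06 at NEAT1. At MDM2 it was 2.55e-06 in Dox and 3.02e-05 in PBS, and at RN7SK 0.00397 and 0.0445.

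RPPH1 reached that IDR in Dox, with 0.0155, although neither of its matched peaks had a q of at most 0.05, and it had no matched pair in PBS. RMRP had a pair in PBS with an IDR of 0.213 and none in Dox. RN7SL2 had a pair in both conditions, with an IDR of 0.471 in Dox and 0.604 in PBS, and RN7SL1 had none. Over all pairs, 27.5% in Dox and 15.0% in PBS had an IDR of at most 0.05. Each table is 1 per condition, so no test between conditions applies.

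To place the genes within each list, their strongest peaks were set beside those of 4 other loci. CDKN1A and MDM2 are classic p53 target genes, NEAT1 is a nuclear long noncoding RNA made by polymerase II, and RN7SK encodes the polymerase III transcript 7SK. The CDKN1A peak had a fold of 11.9 in Dox replicate 1 and 13.3 in Dox replicate 2, and of 11.9 in PBS replicate 1 and 13.2 in PBS replicate 2. Within the same list, the fold of the U4 peak was 1.72 and 1.11 times that of CDKN1A in Dox replicates 1 and 2, and 0.85 and 1.68 times in PBS replicates 1 and 2. For SNORD118 the ratio was 1.25 and 1.35 in the Dox libraries and 0.74 and 1.7 in the PBS libraries.

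By fold, the U4 and SNORD118 peaks thus stood above the CDKN1A peak in 3 of 4 lists and below it in PBS replicate 1. For SNORD3A the ratio was 1.13 and 0.52 in Dox replicates 1 and 2 and 0.59 and 0.68 in PBS replicates 1 and 2. Over the polymerase III windows it ran from 0.14 to 0.46. By −log10 p, the U4 and SNORD118 peaks stood above CDKN1A in PBS replicate 1 too, at 24.2 and 23.5 against 22.8. SNORD3A then stood above CDKN1A in PBS replicate 2 too, at 40.8 against 35.4. It stayed below CDKN1A in Dox replicate 2 and PBS replicate 1. The NEAT1 peak ranked between 1st and 12th over the 4 lists. The peak at MDM2 ranked 38th and 63rd by fold in the Dox lists and 86th and 74th in the PBS lists. By fold it lay below all 3 polymerase II windows in both replicate 1 lists and above SNORD3A in both replicate 2 lists. By −log10 p the order in the replicate 2 lists was reversed. There SNORD3A ranked 34th in Dox and 25th in PBS, and MDM2 92nd and 117th. The RN7SK peak ranked 2890th by fold in Dox replicate 1 and 3144th in Dox replicate 2, and 1201st in PBS replicate 1 and 2383rd in PBS replicate 2. It lay below the 3 polymerase II windows in every list, and above every polymerase III window with a peak in Dox replicate 2 and PBS replicate 1. There were 3 polymerase II and 4 polymerase III windows, chosen in view of the data. Whether the division holds for other genes of each polymerase was not tested. Windows were named for the polymerase of the examined genes, and their peaks were not assigned between these and neighbouring genes.

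**Figure D2:**
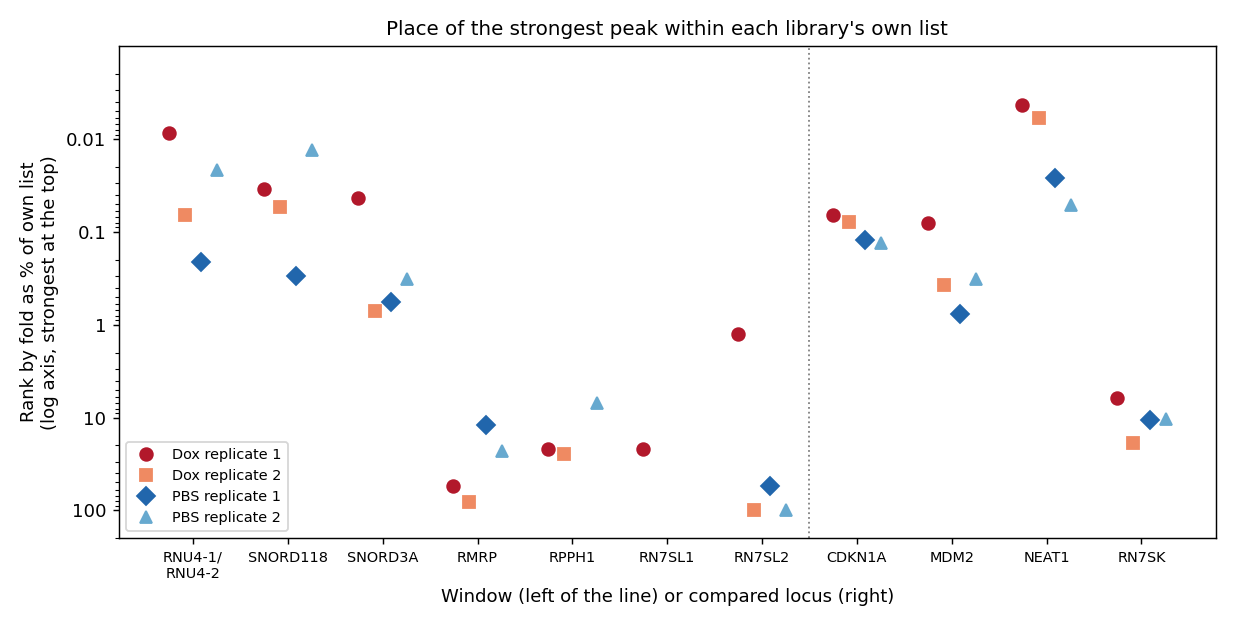
Rank of the strongest peak by fold as a percent of its own list (log axis, strongest at the top) for the 7 windows and the 4 compared loci, with 1 point per library, Dox left of PBS. The polymerase II windows, CDKN1A, MDM2 and NEAT1 lie within the first 1% of every list, while RN7SK and the polymerase III windows lie beyond it.

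The strong peaks were also long. Taking in each library the peak with the smallest p, all 12 peaks of the polymerase II windows were at least 1 kb long, and 1 of the 12 in the polymerase III windows was, the RN7SL2 peak of 1154 bases in PBS replicate 1. Taking the highest fold instead, the SNORD3A peak of PBS replicate 1 was 793 bases long. In the whole lists 2.3% and 1.77% of peaks in Dox replicates 1 and 2 and 1.75% and 1.95% in PBS replicates 1 and 2 reached 1 kb, and the median length was 281 to 288 bases. The U4 peak was 2453 and 2701 bases long in Dox replicates 1 and 2, and 2359 and 2466 bases in PBS replicates 1 and 2. RefSeq gives the U4, U8 and U3 genes lengths of 145, 137 and 217 bases, so these peaks were many times longer than 1 such gene. The U4 window holds 2 U4 genes, and SNORD3C, another U3 gene, is the next RefSeq entry after SNORD3A. A peak may therefore span more than 1 gene, and how many it spans is not given. RefSeq lists SIRT4, which encodes a mitochondrial sirtuin, as a neighbour of both U4 genes, and TMEM107, a gene for a protein of the primary cilium, as a neighbour of SNORD118. The RefSeq neighbours of the polymerase III genes include PARP2 for RPPH1 and CCDC107 for RMRP. They also include LRR1 for RN7SL1 and ARF6 for RN7SL2. Signal was not assigned between any of these genes and their neighbours. Whether a peak in a polymerase III window belongs to a neighbour was not tested.

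Summits of the peak with the smallest p fell close together at the polymerase II genes. The 4 summits lay within 76 bases of each other at SNORD118 and within 108 bases at the U4 genes, and the same peaks had the highest fold. At SNORD3A they lay within 13 bases, but within 1643 bases when the peak with the highest fold was taken, since in PBS replicate 1 the higher fold belonged to the other of its 2 peaks. Among the polymerase III windows, the summits at RN7SL2 lay within 117 bases, although its peaks were weak in 3 of 4 libraries, whereas those at RMRP were spread over 838 bases. The 3 RPPH1 summits spanned 197 bases. In the SNORD3A peaks of 2230 bases or more, the summit sat close to the end with the lower coordinate, at 9.47% to 12.7% of the peak's length, as the map of peak extents shows. No annotation on hg19 was used, so distances from the summits to the gene starts are not given.

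**Figure D3:**
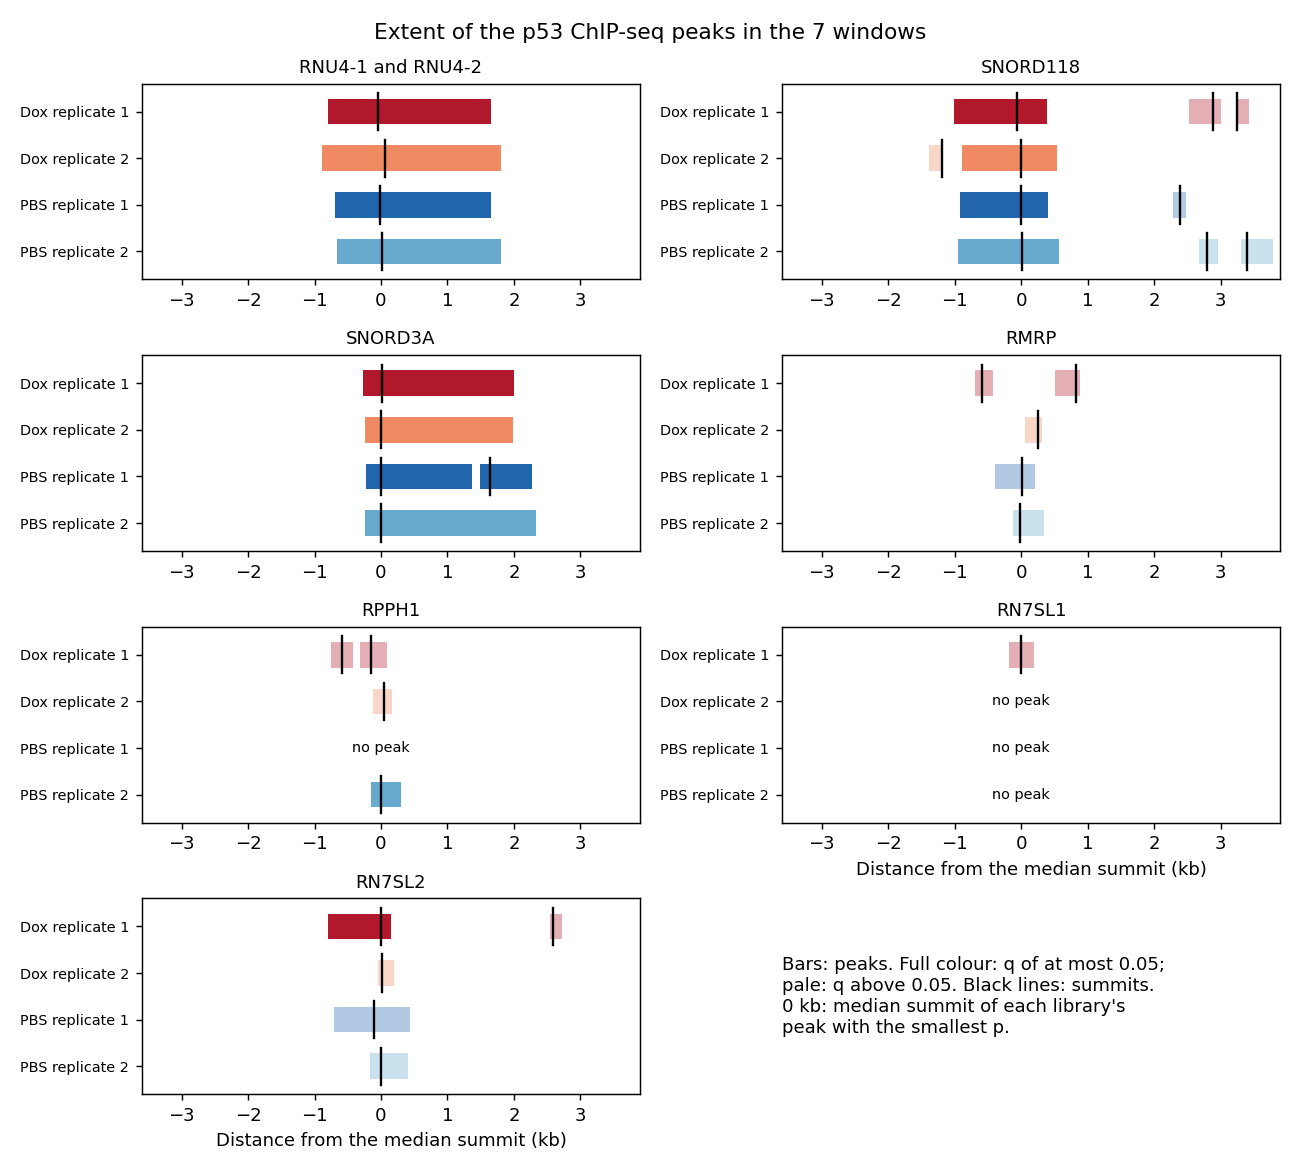
Peaks in the 7 windows, drawn to scale as distance in kb from the median summit, with 1 row per library, Dox above PBS. In the polymerase II windows the summits (black lines) of the peak with the smallest p lie within 108 bases of each other, and in PBS replicate 1 the SNORD3A region is split into 2 peaks; pale bars have a q above 0.05.

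The U4 and SNORD118 peaks were the strongest in their surroundings. Within 100 kb on either side of the U4 window the highest fold was 3.89 and 2.93 in Dox replicates 1 and 2 and 2.94 and 3.59 in PBS replicates 1 and 2. Around SNORD118 it was 6.24 and 5.01 in the Dox libraries and 3.61 and 5.79 in the PBS libraries. Beside SNORD3A a second strong region lay outside the window on chromosome 17, starting at 19014648 in Dox replicate 1 and at 19014663 in Dox replicate 2, with folds of 10.22 and 10.02. The same region started at 19014709 in PBS replicate 1 and at 19014666 in PBS replicate 2, with folds of 6.54 and 13.45. The SNORD3A peak was the stronger of the 2 regions in both replicate 1 libraries and the weaker in both replicate 2 libraries. Which gene lies there is not given, since no annotation on hg19 was used.

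Several of these RNAs have near-identical copies in the genome, and none of the sources used here says how the authors treated reads that match more than 1 place. RefSeq names 5 U3 genes, of which SNORD3C is the next entry after SNORD3A, and 3 7SL genes with 684 further entries named as 7SL pseudogenes. It names 89 pseudogenes of the U4 family, 1 of RMRP and 2 of RPPH1, and has no pseudogene entry named for SNORD118. Signal at SNORD3A, the U4 genes, RN7SL1 and RN7SL2 is therefore uncertain between copies. The same may apply to RMRP and RPPH1, which have fewer named copies. What the copies add to each peak was not tested.

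After doxorubicin, the coverage of these windows by peaks did not differ by more than the spread between libraries. Peaks covered 9683 and 7342 bases of the 7 windows in Dox replicates 1 and 2, and 8007 and 8442 bases in PBS replicates 1 and 2. The Dox libraries lay on both sides of the PBS libraries. The mean was 8512.5 ± 1655 bases for Dox and 8224.5 ± 308 bases for PBS (n = 2 libraries each, ± SD; p = 1.0 by a two-sided exact permutation test, which cannot go below 0.333 here). The number of peaks was 12 and 7 in the Dox libraries and 7 and 8 in the PBS libraries (two-sided exact permutation p = 1.0).

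Within replicate number 1 the Dox library had 1676 more covered bases than the PBS library, and within number 2 the difference was -1100 bases. The Dox mean exceeded the PBS mean by 288.0 bases, but with Dox replicate 1 left out it differed by -882.5 bases. With so few libraries the exact permutation test cannot pass a threshold of 0.05, whatever the difference. The lists do not give the depth of sequencing.

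In the polymerase II windows alone, peaks covered 6777 and 6552 bases in the Dox libraries and 6252 and 6958 bases in the PBS libraries. In the polymerase III windows they covered 2906 and 790 bases in the Dox libraries and 1755 and 1484 bases in the PBS libraries, so most of the spread in Dox came from the weak windows. Window by window, the covered bases of Dox and PBS overlapped in 6 of 7. At SNORD3A both Dox libraries, with 2275 and 2230 bases, lay below both PBS libraries, with 2376 and 2576 bases (difference of means -223.5 bases; two-sided exact permutation p = 0.333, the smallest possible, and 0.934 after Benjamini-Hochberg adjustment over 7 windows).

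**Figure D4:**
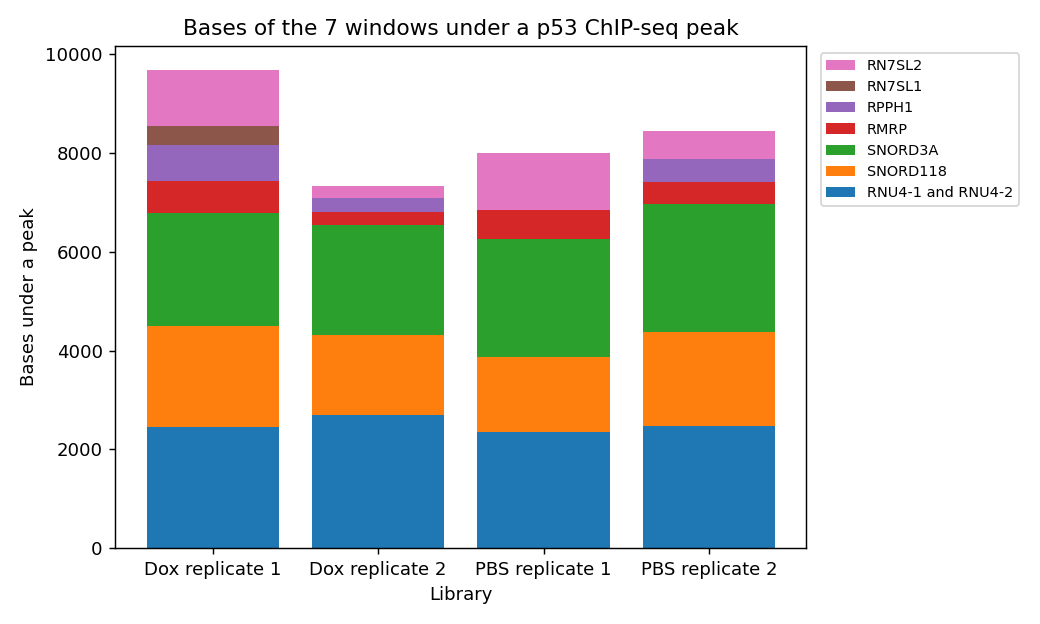
Bases of the 7 windows under a p53 ChIP-seq peak in each library, Dox left of PBS, stacked by window from 0. The totals are 9683 and 7342 bases in Dox and 8007 and 8442 bases in PBS, and the 3 lowest blocks, the polymerase II windows, make up most of each bar.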

How the data were processed

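The members, windows, compared loci and tests were chosen with earlier results of these data known. Alignment used BWA and peak calling MACS2, on hg19, per the submitters' processing notes. No source used here states versions, filters, the control used in calling or the depth. For every ChIP library the authors deposited a list of peaks, called at p under 0.05 per the peak names, with a fold enrichment (a ratio), −log10 p and q-values as −log10 for each peak, and the summit as a chromosome coordinate. For both conditions they deposited a table of matched peak pairs, whose IDR, per the file headers, is a fraction. Peaks sharing at least 1 bp with a window were taken, and peaks of the 4 lists were merged into sites by the same rule. The strongest peak of a window is the one with the highest fold. All 8 genes are described. Conditions were compared over libraries with a two-sided exact permutation test. Replicate numbers are tied to passage by the labels. Overlap, merging, tiling and the test were tested on simulated data. RefSeq entries (GRCh38.p14) gave names, lengths and neighbours for all 8 genes. The promoter table held none of them, so the planned motif search was not run and no sequence is shown. Python 3.11.15, numpy 2.4.6, pandas 2.3.3 and matplotlib 3.10.9 were used.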

Additional observations from a re-analysis of the deposited data

Results flagged for a closer look

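The sign of the difference in covered bases, Dox minus PBS, was opposite at the 2 replicate numbers for several results, which drew attention to them. Each value rests on 1 library per condition and no test of this contrast was made. Over all 7 windows it was 1676 bases within number 1, from passage 3, and -1100 bases within number 2, from passage 5. The number of peaks differed by 5 within number 1 and by -1 within number 2. In the polymerase II windows the covered bases differed by 525 within number 1 and by -406 within number 2, and in the polymerase III windows by 1151 and by -694. By gene, the values for numbers 1 and 2 were 532 and -295 bases at SNORD118, 61 and -199 bases at RMRP, and 730 and -171 bases at RPPH1. The lists of Dox replicate 1 and PBS replicate 1 held 46658 and 11304 peaks. Those of Dox replicate 2 and PBS replicate 2 held 16642 and 22978. The results above were listed for their opposite signs, and other windows did not change sign with the length of the lists. For numbers 1 and 2 the values were 94 and 235 bases at the U4 genes and -101 and -346 bases at SNORD3A. At RN7SL2 they were -19 and -324 bases, and at RN7SL1 379 and 0 bases. The part of list length in any of these differences was not tested.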

How the results depend on the processing

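The 3 polymerase II windows kept the lead in all 4 libraries when peaks were ranked by −log10 p. With peaks of q at most 0.05, the windows with a peak in all libraries fell from 5 to 3. The windows with a peak fell from 7 to 4 in Dox replicate 1 and from 6 to 3 in Dox replicate 2. In PBS replicate 1 they fell from 5 to 3, and in PBS replicate 2 from 6 to 4. With equal list length, 3 windows had a peak in all libraries. The windows with a peak then numbered 6 and 4 in Dox replicates 1 and 2, and 5 in each PBS library. Matched pairs at any IDR gave 4 windows with a pair in both conditions, against 3 at an IDR of at most 0.05 or 0.01. The Dox minus PBS differences turned sign with the settings: for peaks they were -0.5 at q of at most 0.05 and -1.5 at equal list length, and for covered bases -649 at equal list length; the cause was not tested. Leaving out 1 library at a time gave -0.5 to 4.5 peaks and -882.5 to 1458.5 bases, the negative values without Dox replicate 1. With the replicate number as a block, paired by passage, the differences stayed at 2.0 peaks and 288.0 bases (exact permutation p = 1.0 for both). Over all alternatives p ran from 0.333 to 1.0, never under what this design allows. Asking for at least 50% of a peak inside the window, or keeping the central 50% of each window, turned no result. The distance from summits to gene starts and the promoter motifs were not run.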
